A study of Mus musculus with 6 samples.

Results

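Small leucine-rich proteoglycans are a family of secreted matrix proteins, and the 10 genes described here are *Dcn*, *Bgn*, *Lum*, *Fmod*, *Ogn*, *Aspn*, *Omd*, *Prelp*, *Kera* and *Epyc*. They were selected by their gene symbols, a rule that uses no measured value, but the list was drawn up with earlier results of these data known. All 10 were found among the 56748 genes of the count table. Of these, 8 had enough counts to be tested, as had 17146 genes in all, and *Kera* and *Epyc* did not. RNA came from 6 cultures of cells isolated as osteocytes from mouse long bones and grown for 7 days. Every culture received lipopolysaccharide (LPS) at 10 ng/mL for 3 h and then aluminum hydroxide, an inflammasome activator, at 20 µg/mL for a further 3 h. The 3 WT cultures came from C57BL/6 mice, given in the methods as 7 weeks old, and the 3 cultures labelled cKO from Gsdmd fl/fl; DMP1-Cre mice, in which the gene of the pore-forming protein gasdermin D is floxed and Cre is driven by the promoter of dentin matrix protein 1. No unstimulated culture was analysed here. Because no source used here ties a culture to an animal, the p-values measure the spread between these samples, which may be technical.

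Each protein of the family has a curved core of leucine-rich repeats that lies along collagen fibrils and limits their width and spacing. Class I (decorin, biglycan, asporin) and class II (lumican, fibromodulin, prolargin, osteomodulin, keratocan) mostly carry chondroitin or dermatan sulfate and keratan sulfate, respectively, and class III holds osteoglycin and epiphycan. In bone they are laid down with type I collagen, they bind growth factors of the TGF-β family, and soluble decorin and biglycan engage Toll-like receptors.

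The libraries differed in more than the labelled genotype. The totals were 39566835 to 49734046 counts. *Gsdmd* itself had a level of 13.9 ± 0.339 CPM (counts scaled by library size, per 1e6) in WT and 22.5 ± 1.33 CPM in the cKO-labelled libraries (SD, n = 3 each). Its count was thus higher where the label names a deletion, and all directions given here rest on the labels. The count covers the whole gene, whereas the methods describe only critical exons as floxed, so it does not show whether these exons were deleted. *Xist* had 0 to 4 counts in WT but 44817 to 51216 in the cKO-labelled libraries, and the Y-linked gene *Ddx3y* had 4033 to 5455 counts in WT and 0 in the others, where the methods describe mice matched for age and sex. Genotype label and these sex-linked transcripts thus divide the libraries in the same way, and they cannot be told apart for any gene. The defining osteocyte transcripts were nearly absent in both groups, with 0 counts of *Sost* in all libraries, 0 to 2 of *Mepe* and 0 to 6 of *Dmp1*, whereas *Pdpn* of the same list was at 233.7 ± 7.58 CPM in WT and 192.9 ± 3.57 CPM in the cKO-labelled libraries. All 13 tested of 14 macrophage markers were called higher, with a summed level of 1199.9 to 1352 CPM in WT and 6357 to 6668 CPM in the cKO-labelled libraries. Of 11 chondrocyte markers, 9 were tested and 5 were called higher, but *Acan*, *Col9a1*, *Col9a2* and *Matn1* of these had 0 to 8 counts in any WT library and passed the filter on low counts only through the cKO-labelled libraries. With at least 10 counts required in every library, 1 was called higher. Their summed level was 2328 to 2538 CPM in WT against 3284 to 3481 CPM in the cKO-labelled libraries. At an adjusted p-value below 0.05 alone (edgeR's test), 7 of the 9 tested were higher, *Comp* among them, and 1 was lower, *Col2a1*. Of the 8 smooth muscle and pericyte markers, 0 were called higher and 7 lower (sum 1193 to 1385 and 515.1 to 575.7 CPM). The part of these shifts in the results on the proteoglycans was not tested, and fewer cells of a type cannot be told apart from less RNA per cell in bulk samples.

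The proteoglycan transcripts were abundant and changed in make-up between the groups. Transcripts of fibromodulin, lumican and osteomodulin were 2.28-fold to 2.81-fold higher in the cKO-labelled libraries, asporin rose less, and biglycan, decorin and prolargin fell by less than the fold limit. Together the 10 genes took 1.05% to 1.09% of all counts in WT and 1.13% to 1.17% in the cKO-labelled libraries. Calls required both an adjusted p-value (edgeR's quasi-likelihood test) under 0.05 and a change of 1 or more on the log2 scale. By this rule 3 of the 8 tested members were called higher and 0 lower, while 6.56% of all tested genes were called higher and 4.64% lower. At an adjusted p-value below 0.05 without the fold limit, 4 of the 8 rose and 3 fell, against 20.1% and 19.2% of all tested genes. The cKO-labelled libraries all lay above the WT libraries for 4 members and all below them for 3, against 25.3% and 23.9% of all tested genes. At an unadjusted p-value below 0.05 the members lower in edgeR's test were again 3, and DESeq2 and limma-voom also called 0 lower with the fold limit. The median log2 fold change of the 8 members was 0.28, and that of all tested genes 0.01. The lowest count of a tested member in any library was 136.

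Levels of different genes were compared per length, as CPM per kilobase of the deposited gene length. This length was 6099 bases for *Bgn*, 5838 for *Dcn*, 3615 for *Prelp* and 3306 for *Fmod*. The lengths were not checked against the transcripts present in these cells, and the order, ranks and shares rest on them. In WT, *Bgn* was highest at 794.8 ± 6.38 CPM per kilobase (SD, n = 3), and it ranked 28 among all tested genes. *Prelp* followed at 557.9 ± 6.38 and *Fmod* at 542.3 ± 24.5 CPM per kilobase. These neighbors in the order overlapped between WT libraries, 551.2 to 564 for *Prelp* and 516.2 to 564.9 for *Fmod*. *Dcn* (302.9 ± 2.15), *Ogn* (117.7 ± 11.8), *Lum* (21.0 ± 1.06), *Aspn* (7.14 ± 0.188) and *Omd* (1.51 ± 0.338 CPM per kilobase) came next, each separated from its neighbors by more than the spread of the 3 libraries. In the cKO-labelled libraries, *Fmod* was highest at 1237 ± 23.9 CPM per kilobase and ranked 17 among all tested genes, from 47 in WT. *Bgn* was at 595.1 ± 21.1 CPM per kilobase, with a rank of 45, and *Prelp* at 482.9 ± 1.79, with a rank of 57. *Lum* moved from rank 2107 to rank 645 and *Dcn* from rank 91 to rank 105. The order of the remaining members was the same in both groups.

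**Figure D1:**
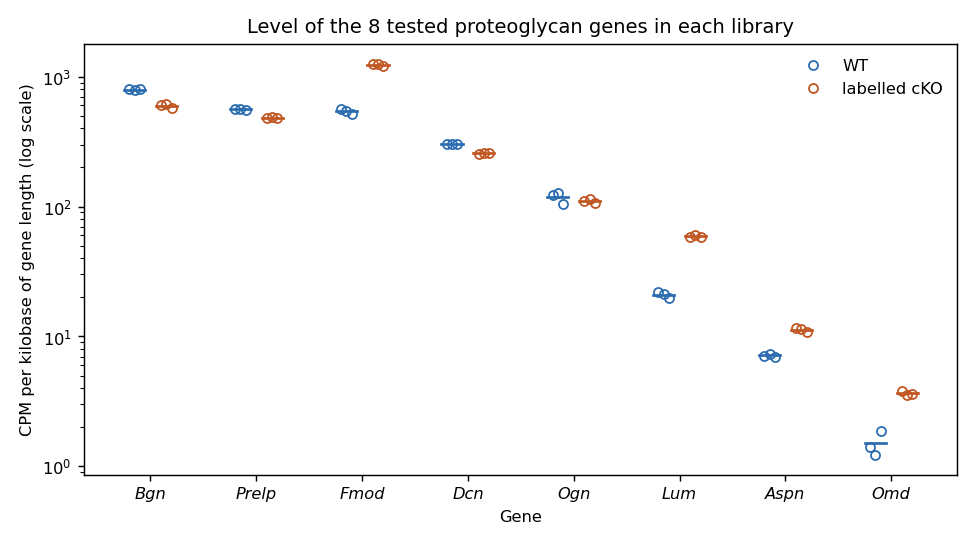
Level of the 8 tested members in CPM per kilobase of gene length (log axis) in each of the 3 WT libraries (blue circles) and the 3 cKO-labelled libraries (orange circles), with bars at the group means. *Fmod*, *Lum*, *Aspn* and *Omd* lie higher in the cKO-labelled libraries, *Bgn*, *Prelp* and *Dcn* lower, and the groups overlap only for *Ogn*.

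The share of each gene in the summed level per length followed from these values and rests on the same gene lengths. *Bgn* held 33.9% ± 0.737 of the sum in WT and 21.6% ± 0.371 in the cKO-labelled libraries (SD, n = 3 each). *Fmod* held 23.1% ± 0.7 in WT and 44.9% ± 0.0734 in the cKO-labelled libraries, more than *Bgn* and *Prelp* together (17.5% ± 0.265, from 23.8% ± 0.219). The share of *Dcn* was 12.9% ± 0.24 and 9.35% ± 0.227, and that of *Lum* 0.894% ± 0.0321 and 2.14% ± 0.0339. The summed level was 2345 ± 36.4 CPM per kilobase in WT and 2757 ± 51.8 CPM per kilobase in the cKO-labelled libraries.

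**Figure D2:**
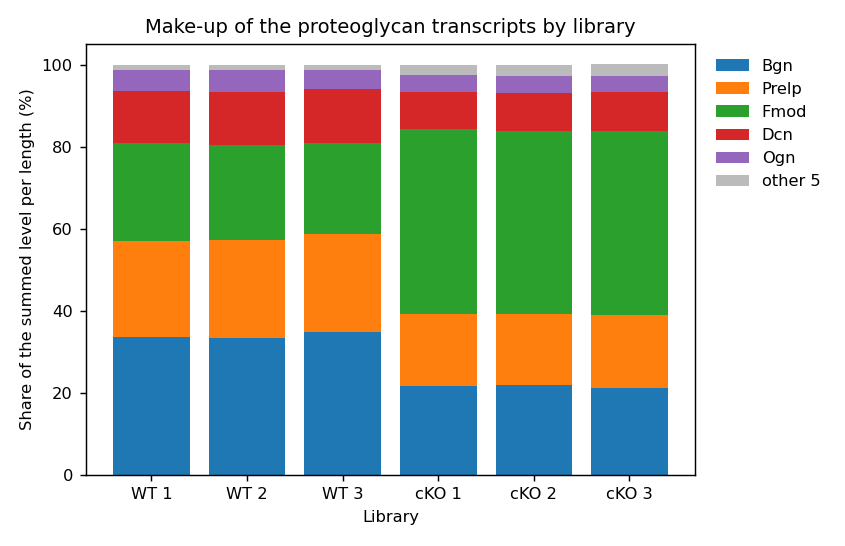
Share (%) of the summed level per length that each gene held in each library, as stacked bars. The *Fmod* segment widens from 22.4% to 23.8% in the WT libraries to 44.8% to 45.0% in the cKO-labelled libraries, and the *Bgn* segment narrows from 33.4% to 34.7% to 21.2% to 21.8%.

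*Bgn*, encoding biglycan, the class I member that is abundant in bone matrix and that the study used as an osteocyte marker in human single-cell data, lies on chromosome X (mm39) between 72527208 and 72539539. Its counts were 218630, 238612 and 189609 in WT against 154066, 148822 and 158548 in the cKO-labelled libraries. On the CPM scale this was 4854, 4805 and 4882 in WT and 3659, 3740.5 and 3488 in the cKO-labelled libraries, and the groups did not overlap. *Bgn* fell by 0.42 on the log2 scale (95% interval -0.48 to -0.35), in edgeR's fit (adjusted p = 3.84e-09), and its mean was 1.34-fold lower. It is the X-linked member, and genotype label and *Xist* count cannot be told apart in these libraries, for *Bgn* or for any other member.

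*Dcn*, on chromosome 10 from 97315471 to 97354005, encodes decorin, which binds collagen fibrils and holds TGF-β in the matrix. Its level was 1755, 1780.3 and 1769 CPM in WT and 1482, 1517 and 1517 CPM in the cKO-labelled libraries. All cKO-labelled libraries lay below all WT libraries, and the log2 fold change was -0.23 (95% interval -0.30 to -0.17, adjusted p = 6.53e-06), with a mean 1.17-fold lower. Per length, the ratio of *Dcn* to *Bgn* was 0.378 to 0.387 in WT and 0.423 to 0.454 in the cKO-labelled libraries.

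*Aspn*, on chromosome 13 from 49697919 to 49721041, encodes asporin, a class I member without the usual glycosaminoglycan chain. It was counted 756, 857 and 636 times in WT and 1147, 1071 and 1163 times in the cKO-labelled libraries, or 16.8, 17.3 and 16.4 against 27.2, 26.9 and 25.6 CPM. The groups did not overlap. The log2 fold change of 0.66 (95% interval 0.50 to 0.82, adjusted p = 1.18e-06) was under the limit of 1. *Aspn* thus rose while both other members of its class fell.

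*Fmod*, on chromosome 1 from 133964992 to 133976015, encodes fibromodulin, a class II member of tendon, cartilage and bone that takes part in collagen cross-linking. It was counted 84106, 89594 and 66274 times in WT and 172761, 165598 and 182061 times in the cKO-labelled libraries. This gave 1867.5, 1804 and 1706.5 CPM in WT and 4103, 4162 and 4006 CPM in the cKO-labelled libraries, and the lowest of the second group stood far above the highest of the first. The log2 fold change was 1.19 (95% interval 1.12 to 1.26, adjusted p = 1.53e-14), a 2.28-fold higher mean.

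*Lum*, on chromosome 10 from 97400990 to 97408565, encodes lumican, which shares a binding region on type I collagen with fibromodulin. Among the 8 tested members its change was the largest, at 1.49 on the log2 scale (95% interval 1.38 to 1.59, adjusted p = 9.39e-14), at a much lower level. Its 3 WT libraries held 53.8, 51.6 and 48.6 CPM and its 3 cKO-labelled libraries 141.7, 147.8 and 142.9 CPM, without overlap. Per length, the ratio of *Lum* to *Fmod* was 0.0385 to 0.0389 in WT and 0.0466 to 0.0482 in the cKO-labelled libraries, so *Lum* remained the minor of the pair in every library.

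*Omd*, on chromosome 13 from 49735938 to 49746298, encodes osteomodulin, also called osteoadherin, a keratan sulfate proteoglycan of mineralized bone. It was the least abundant tested member, with 144, 136 and 164 counts in WT and 362, 315 and 368 counts in the cKO-labelled libraries. These were 3.20, 2.74 and 4.22 against 8.60, 7.92 and 8.10 CPM, and the groups did not overlap. The log2 fold change was 1.28 (95% interval 0.93 to 1.63, adjusted p = 5.98e-06), the widest interval of the 8 tested members, and without one library at a time it stayed between 1.14 and 1.46.

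*Prelp*, on chromosome 1 from 133838042 to 133849152, encodes prolargin, which links collagen to heparan sulfate in basement membranes and cartilage. Its level was 2019, 2039 and 1993 CPM in WT and 1746, 1752 and 1739 CPM in the cKO-labelled libraries. *Prelp* fell by 0.21 on the log2 scale (95% interval -0.27 to -0.15, adjusted p = 1.72e-05), and the groups did not overlap. Per length it was level with *Fmod* in WT, where the ratio of *Fmod* to *Prelp* ran from 0.936 to 1.011, whereas in the cKO-labelled libraries this ratio was 2.52 to 2.60. The antisense gene *Gm15851* overlaps *Prelp*, with means of 1421 counts in WT and 1914 in the cKO-labelled libraries, and because the strand setting of the counting is not given in the sources used here, reads of the pair may be mixed.

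*Ogn*, on chromosome 13 from 49761522 to 49777977, encodes osteoglycin, a class III member of bone, also called mimecan. It had 314.3, 324.4 and 267.6 CPM in WT and 282.2, 295.2 and 272.9 CPM in the cKO-labelled libraries, and the groups overlapped. Its log2 fold change of -0.09 (95% interval -0.22 to 0.03) had an adjusted p-value of 0.232. Without WT replicate 3, its lowest WT library, the log2 fold change was -0.18 and the adjusted p-value 0.000676, and with upper quartile scaling they were -0.16 and 0.0402. *Kera*, encoding the corneal keratan sulfate proteoglycan keratocan, was counted 0, 4 and 6 times in WT and 0, 2 and 2 times in the cKO-labelled libraries. *Epyc*, encoding the growth plate proteoglycan epiphycan, was counted 0, 2 and 3 times and 0, 2 and 0 times. A difference in *Kera* or *Epyc* was not detectable at this depth.

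**Figure D3:**
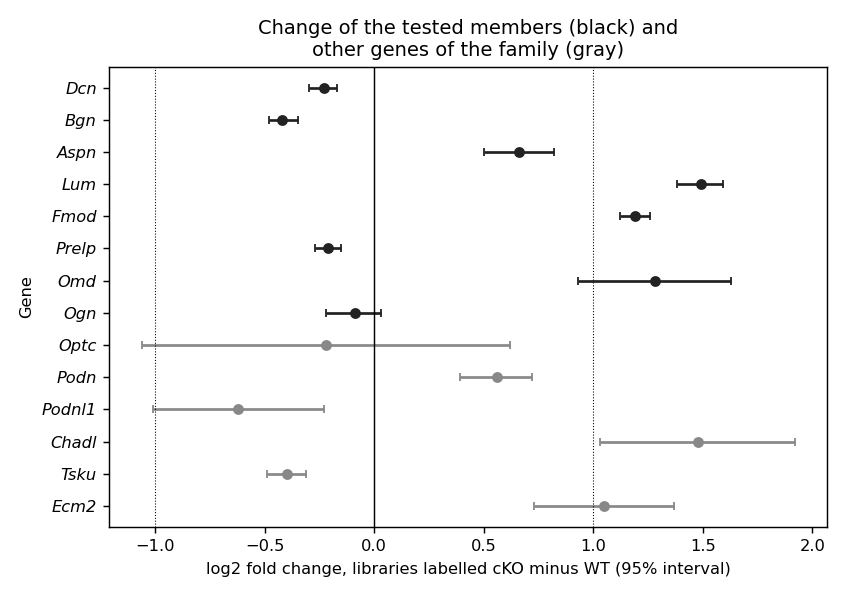
Log2 fold change (cKO-labelled libraries minus WT) of the 8 tested members (black) and 6 tested other genes of the family (gray), with 95% intervals from edgeR's quasi-likelihood fit. Dotted lines mark the fold limit of 1 in either direction. *Lum*, *Omd* and *Fmod* lie beyond it and the intervals of *Bgn*, *Dcn* and *Prelp* lie below 0.

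Ratios between members in one library do not depend on the scaling between libraries. For the 5 pairs compared, the difference in mean log2 ratio was 0.19 for *Dcn* over *Bgn*, 0.30 for *Lum* over *Fmod*, -0.75 for *Ogn* over *Aspn*, 1.51 for *Omd* over *Prelp* and 1.40 for *Fmod* over *Prelp*. The 3 values of each group did not overlap for any of the 5 pairs. The two-sided exact permutation test gave p = 0.1 for each, also after adjustment over the 5 pairs, which is the smallest value that 3 against 3 libraries allow, so that 0.05 could not be reached.

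Most of these genes lie close to each other in the genome, in clusters that arose by duplication. On chromosome 10, *Dcn*, *Lum*, *Kera* and *Epyc* lie in this order on the plus strand within 202.9 kb, and *Dcn* fell, *Lum* rose and the other two were counted at most 6 times. On chromosome 13, *Ecm2*, *Aspn*, *Omd* and *Ogn* lie within 119.7 kb on the plus strand, all within the span of *Cenpp*, which is on the opposite strand and was counted 562 times over the 6 libraries. *Ecm2*, which encodes a related matrix protein, had a log2 fold change of 1.05 (adjusted p = 1.90e-05) and rose with *Aspn* and *Omd*, whereas *Ogn*, at the end of the row, did not pass. On chromosome 1, *Optc*, *Prelp* and *Fmod* lie within 151.1 kb. *Prelp* and *Fmod*, which have 3 other genes between them (2 long noncoding RNAs and a pseudogene), moved in opposite directions, and *Optc*, with 23 to 43 counts per library, had a log2 fold change of -0.22 (adjusted p = 0.713).

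**Figure D4:**
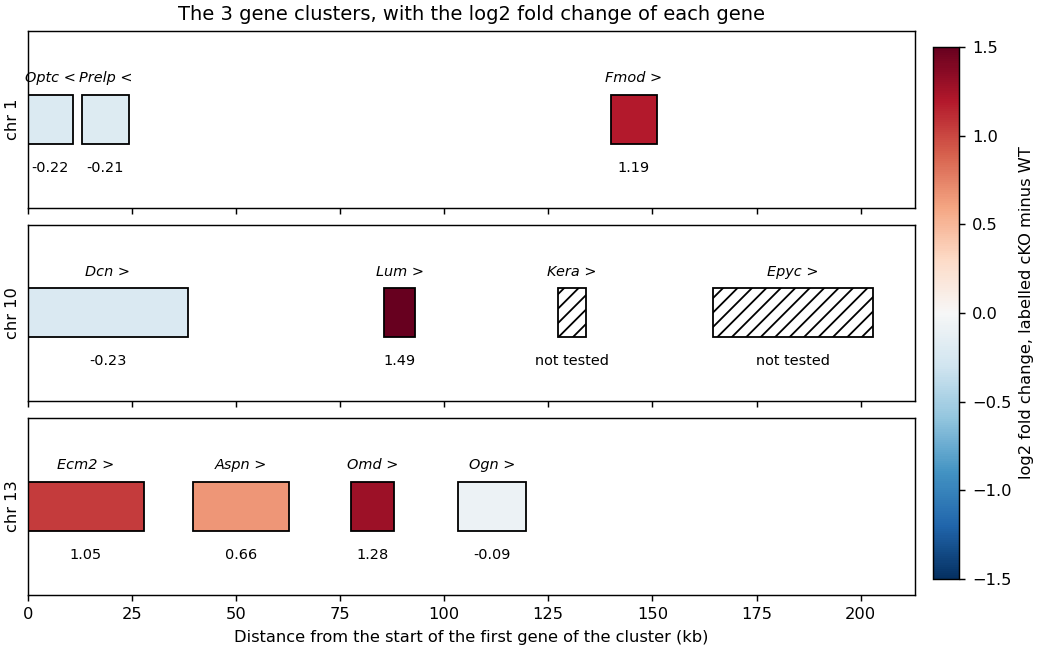
The clusters on chromosomes 1, 10 and 13 drawn to scale, with distance in kb from the start of the first gene, boxes for genes of the family (other genes in these regions are not drawn), hatching for genes not tested, > and < after a name for the plus and minus strand and the log2 fold change (cKO-labelled libraries minus WT) as color and number. Members with opposite directions share a cluster on chromosome 1 (*Prelp* -0.21, *Fmod* 1.19) and on chromosome 10 (*Dcn* -0.23, *Lum* 1.49).

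Sequences upstream of members that share a cluster are shown because these pairs changed differently. RefSeq promoters of build GRCm38.p6 were matched by symbol for 8 of the 10 genes, and the 250 bases before the start are printed 5′ to 3′ for *Prelp* and *Fmod* and for *Aspn* and *Ogn*. Capitals mark the motifs searched on both strands, which were the TATA box written as TATAAA, the RUNX motif written as TGTGGT and the AP-1 motif written as TGANTCA.
Prelp, chr1:133921402-133921651, minus strand: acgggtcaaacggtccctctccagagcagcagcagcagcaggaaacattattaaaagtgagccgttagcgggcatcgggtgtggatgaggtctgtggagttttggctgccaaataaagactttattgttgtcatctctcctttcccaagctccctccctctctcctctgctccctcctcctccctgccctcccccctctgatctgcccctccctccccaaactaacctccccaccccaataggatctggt
Fmod, chr1:134037004-134037253, plus strand: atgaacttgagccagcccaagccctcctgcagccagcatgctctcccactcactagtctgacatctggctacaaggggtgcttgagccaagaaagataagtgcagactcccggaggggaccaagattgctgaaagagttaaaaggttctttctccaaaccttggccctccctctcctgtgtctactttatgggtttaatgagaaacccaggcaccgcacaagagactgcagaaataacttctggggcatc
Aspn, chr13:49544193-49544442, plus strand: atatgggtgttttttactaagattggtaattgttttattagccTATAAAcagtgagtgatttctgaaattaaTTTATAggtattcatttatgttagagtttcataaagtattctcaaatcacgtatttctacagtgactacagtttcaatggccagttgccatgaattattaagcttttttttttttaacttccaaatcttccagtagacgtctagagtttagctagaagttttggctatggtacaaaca
Ogn, chr13:49607765-49608014, plus strand: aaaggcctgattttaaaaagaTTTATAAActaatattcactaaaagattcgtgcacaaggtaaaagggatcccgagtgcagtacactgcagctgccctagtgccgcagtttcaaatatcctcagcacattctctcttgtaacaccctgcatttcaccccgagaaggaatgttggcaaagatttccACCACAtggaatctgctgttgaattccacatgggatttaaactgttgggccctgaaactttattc
TATAAA was found upstream of *Aspn*, 207 and 178 bases before the start, and of *Ogn*, 229 and 227 bases before it. In each gene the matches were on both strands, and in *Ogn* the matches on the 2 strands overlap. Whether any of them acts as a TATA box was not tested. TGTGGT was found upstream of *Ogn*, 65 bases before the start on the minus strand. The upstream windows of *Bgn*, *Fmod*, *Omd*, *Prelp*, *Kera* and *Epyc* held none of the 3 motifs. Among all 32851 upstream windows of the same length, 12.4% held the TATA box, 14.0% the RUNX motif and 6.7% the AP-1 motif. The GC content was 64.4% for *Bgn*, 55.6% for *Prelp*, 51.2% for *Fmod*, 42% for *Ogn*, 38.4% for *Omd* and 30.0% for *Aspn*, and the median over all windows was 52.4% (quartiles 45.2% and 61.2%).

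Of 8 other genes of the family, 6 were tested, 2 were called higher and 0 lower by edgeR, DESeq2 and limma-voom, and without the fold limit 3 rose and 2 fell, as at an unadjusted p-value below 0.05. The number called higher was 1 with upper quartile scaling and 1 without cKO replicate 1, and it was 3 without any single WT library or without cKO replicate 2. *Chadl*, encoding a chondroadherin-like matrix protein, was counted 62, 73 and 59 times in WT and 149, 179 and 187 times in the cKO-labelled libraries (log2 fold change 1.48, adjusted p = 1.91e-05). *Podn*, encoding podocan, had a log2 fold change of 0.56 (adjusted p = 1.41e-05). *Tsku*, encoding tsukushi, a secreted Wnt and TGF-β antagonist, fell from 170.1 ± 5.52 to 128.9 ± 2.34 CPM (a log2 change of -0.40, adjusted p = 6.92e-07), and *Podnl1* had a log2 fold change of -0.62 (adjusted p = 0.013). *Chad* (0, 0 and 2 counts in WT, 12, 5 and 14 in the cKO-labelled libraries) and *Nyx* were not tested.

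The enzymes that build the sugar chains of these proteins changed unevenly. Of 7 genes of the linker to the core protein, 1 was called higher and 0 lower (median log2 fold change 0.12) by edgeR, DESeq2 and limma-voom, with 4 higher and 2 lower at an unadjusted p-value below 0.05. This was *Xylt1*, a xylosyltransferase that begins the chain, which rose from 60.7 ± 3.25 to 139.2 ± 0.907 CPM (a log2 change of 1.20, adjusted p = 1.63e-12), and its paralog *Xylt2* had a log2 fold change of 0.81 (adjusted p = 6.11e-09). Of 16 genes of chondroitin and dermatan sulfate, 1 was called higher and 1 lower (median log2 fold change -0.00). *Chst11*, which adds sulfate at the 4 position of chondroitin, fell from 240.2 ± 1.49 to 102.9 ± 4.77 CPM (a log2 change of -1.22, adjusted p = 2.84e-13), and *Chst3*, which adds it at the 6 position, was counted 10, 44 and 6 times in WT and 49, 48 and 69 times in the cKO-labelled libraries (log2 fold change 1.58, adjusted p = 0.0204). The call of *Chst3* was lost without WT replicate 1, without WT replicate 3 or without cKO replicate 3. It was also lost with at least 10 counts required in every library. Without the fold limit, 5 of the 16 rose, 2 fell and 9 did not pass. Of 7 genes of keratan sulfate, the chain of *Lum*, *Fmod* and *Omd*, 5 were tested, 1 was called higher (*B3gnt7*, 8, 12 and 26 counts in WT and 51, 73 and 49 in the cKO-labelled libraries) and 0 lower, and 3 fell without the fold limit, as at an unadjusted p-value below 0.05, while DESeq2 and limma-voom also called 0 lower. With at least 10 counts required in every library, 0 of the list were called higher. Among the 3 that fell was the keratan sulfate sulfotransferase *Chst1* (log2 fold change -0.71, adjusted p = 3.81e-05).

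Of 15 fibrillar collagen and fibril-associated genes, 0 were called higher and 1 lower, and without the fold limit 4 rose and 8 fell (median -0.22). *Col1a1*, the main chain of bone collagen, fell from 5799 ± 315.3 to 3648 ± 138.7 CPM (a log2 change of -0.67, adjusted p = 1.21e-10), and *Col14a1*, a fibril-associated collagen, had a log2 fold change of -1.72 (adjusted p = 3.47e-09). *Col1a2*, the other chain of type I collagen, had a log2 fold change of -0.09 (adjusted p = 0.0917), and its groups overlapped. *Col6a2*, of the beaded filaments that biglycan and decorin bind, had a log2 fold change of 0.47 (adjusted p = 8.58e-09). At an unadjusted p-value below 0.05, 4 were higher and 9 lower, and DESeq2 and limma-voom also called 0 higher.

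Of the 13 proteases and enhancers that process or cleave these proteoglycans, 12 were tested, 1 was called higher and 2 lower. *Bmp1*, which removes the propeptide of biglycan and osteoglycin, fell from 340.7 ± 23.2 to 160.6 ± 4.28 CPM (a log2 change of -1.08, adjusted p = 4.86e-12), and its relative *Tll1* fell from 21.4 ± 2.93 to 7.09 ± 0.322 CPM. *Mmp13*, a collagenase that also cuts biglycan and fibromodulin, rose from 878.8 ± 30.1 to 2936 ± 119.7 CPM (a log2 change of 1.74, adjusted p = 3.00e-16). Of 16 ligands and receptors reported to bind the family, 2 were called higher and 0 lower in edgeR's test, which had 8 higher and 7 lower at an unadjusted p-value below 0.05. DESeq2 and limma-voom each called 1 lower, and the lowest value in the list was that of *Bmp2* at -0.99. The higher genes were *Tlr2*, a receptor of soluble biglycan, from 47.2 ± 2.67 to 155.7 ± 2.03 CPM, and its co-receptor *Cd14*, from 72.7 ± 5.56 to 241.5 ± 3.55 CPM. Both are also macrophage genes, and *Cd14* stands in the list of macrophage markers, which were all higher. *Tlr4*, the LPS receptor, had a log2 fold change of 0.45 (adjusted p = 8.62e-07), the decorin receptor *Met* one of 0.97 (adjusted p = 4.46e-08) and *Tgfb1* one of 0.72 (adjusted p = 8.28e-09). Without the fold limit, 8 genes of this list rose and 6 fell in edgeR's test. Those that fell included *Tgfb3* (-0.38, adjusted p = 3.32e-06) and the receptor *Igf1r* (-0.16, adjusted p = 0.00281). Of the 17 other proteoglycan core proteins, 15 were tested, 2 were called higher and 0 lower. *Acan*, the aggregating proteoglycan of cartilage, was counted 8, 2 and 6 times in WT and 871, 782 and 922 times in the cKO-labelled libraries, and *Esm1* had a log2 fold change of 1.15 (adjusted p = 9.96e-09). Without the fold limit 6 rose and 8 fell, the same numbers as at an unadjusted p-value below 0.05, and DESeq2 and limma-voom also called 0 lower. *Acan* passed the filter on low counts only through the cKO-labelled libraries, and 1 of the list was called higher with at least 10 counts in every library.

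**Figure D5:**
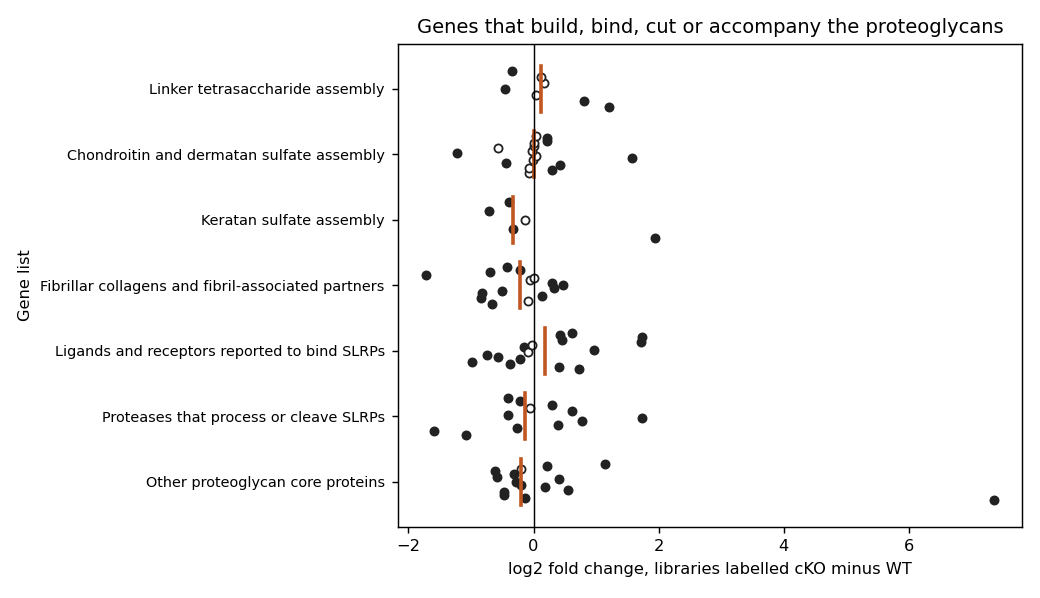
Log2 fold change (cKO-labelled libraries minus WT) of the tested genes in 7 lists, one dot per gene, filled where the adjusted p-value was below 0.05, with the list's median as an orange line. The medians lie between -0.33 for keratan sulfate assembly and 0.19 for ligands and receptors, and single genes such as *Acan* at 7.36 stand far from them.

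The marker lists were read beside these values. *Fmod* and *Kera* belong to a list of tendon markers, of which 7 of 8 were tested, 2 were called higher (*Fmod* and *Comp*) and 0 lower. Without the fold limit, 3 rose and 1 fell at an adjusted p-value below 0.05 in edgeR's test. The gene that fell was the tendon transcription factor *Scx* (log2 fold change -0.26, adjusted p = 0.0131). *Comp*, a cartilage and tendon matrix protein, rose from 566.7 ± 26.4 to 2116 ± 75.1 CPM, whereas *Col2a1*, the main cartilage collagen, fell from 1427 ± 77.7 to 797.3 ± 47.5 CPM. Of the 9 tested chondrocyte markers, *Col2a1* alone was lower at an adjusted p-value below 0.05 in edgeR's test, and 7 were higher. Of the other tested markers, 0 of 4 osteocyte genes were called higher and 1 lower, 1 and 0 of 8 osteoblast genes, 2 and 1 of 7 osteoclast genes, 2 and 4 of 8 endothelial genes, 1 and 1 of 7 marrow stromal genes, 2 and 2 of 10 fibroblast genes, and 1 and 0 of 2 neutrophil and lymphocyte genes. The osteocyte gene called lower was *Ptprz1*, named after its values were seen, with 26, 47 and 62 counts in WT and 10, 17 and 0 in the cKO-labelled libraries. DESeq2 called 0 osteocyte genes lower, as did edgeR with at least 10 counts in every library, and without cKO replicate 1 edgeR called 2. With at least 10 counts in every library, 1 endothelial gene was called lower and 1 fibroblast gene higher, and without cKO replicate 1, 2 marrow stromal genes were called higher.

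The genes most like each member were found by the root mean square distance between log2 CPM profiles over the 6 libraries, each centred on its own mean, among all tested genes. Among the members, *Dcn* and *Prelp* were nearest to each other, at a distance of 0.0192, and *Lum* and *Fmod* at 0.15. Over all genes, the 3 nearest to *Dcn* were *Tpm4*, *Otud7b* and *Gnb1* (0.00996 to 0.0145), and those to *Prelp* were *Relch*, *Eif5* and *Htra1* (0.0086 to 0.014). *Bgn* was nearest to *Serpinh1*, which encodes a collagen chaperone, *Ccnd3* and *Sars* (0.0102 to 0.0239). *Ogn* was nearest to *Ttc23*, *Mettl14* and *Tmem199* (0.0211 to 0.027), and *Aspn* to *Sec11c*, *Lbp* and *Atp6v1c1* (0.0282 to 0.0351). The nearest genes were *Gm28875*, *Efhd2* and *Steap3* for *Lum* (0.0395 to 0.0506), *Maoa*, *Acsl1* and *Cndp2* for *Fmod* (0.0428 to 0.05), and *Gm13609*, *AI504432* and *Il6* for *Omd* (0.0403 to 0.113). All profiles share the same 6 libraries, and the nearest genes had log2 fold changes close to that of their member. For *Lum*, at 1.49, those of its 3 nearest genes were 1.49 to 1.52. Shared regulation was not tested.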

How the data were processed

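Bulk RNA was sequenced from 6 cultures (3 WT, 3 labelled cKO). Paired reads of 150 bp were trimmed by the authors, mapped with HISAT2 2.0.5 (build mm39) and counted with featureCounts, and the authors deposited raw counts per gene with a gene length in bases. The labels name featureCounts 1.55.0-p3, and the methods another release and RSEM. From the counts, log2 fold changes were computed with edgeR 4.0.16 (R 4.3.3) after filterByExpr and TMM scaling by its quasi-likelihood test, in a model of the genotype label alone. Benjamini-Hochberg adjustment ran over 17146 genes. The standard error is the log2 fold change divided by the root of F. CPM used the TMM-scaled library total. The totals of 39566835 to 49734046 counts limit precision for low genes, and intervals cover no more than the spread between samples. Libraries of one group differed by more than sampling noise (chi-square per gene 4.80 to 13.9, and 2.40 to 6.93 with the counts halved). Halving allows for the case that both reads of a pair were counted.

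The members and the 19 other lists were chosen with earlier results of these data known. The naming rule took all members, from each other list up to 2 called genes per direction by smallest p, and direct partners of a member. *Podn*, *Podnl1*, *Tsku*, *Optc*, *Chad*, *Nyx*, *Xylt2*, *Chst1*, *Scx*, *Col2a1*, *Pdpn*, *Sost*, *Mepe* and *Dmp1* fall outside it and were chosen after their values were seen. Deviations of WT and cKO-labelled samples with the same replicate number were not correlated (-0.01 to 0.00). With 3 libraries per group this cannot show whether the samples were paired. In simulated counts of 17146 genes for cKO against WT, with 200 changed by 2 on the log2 scale, 198 were recovered and 2 unchanged genes were called. This change was larger than that of any tested member (at most 1.49), so the simulation does not show recovery near the fold limit of 1. DESeq2 1.42.0, limma 3.58.1 voom, other scalings and filters, a replicate block, halved counts and each library left out were tried as alternatives. Promoters came from RefSeq (GRCm38.p6), whose coordinates are not those of mm39.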

Additional observations from a re-analysis of the deposited data

How the results depend on the processing

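The 3 members called higher stayed 3, and the 0 called lower stayed 0, under DESeq2, limma-voom, 3 other scalings, 2 other filters, halved counts, the replicate number as a block and each library left out. Without the limit on the fold change, 4 members were higher and 3 lower, and over all genes 3445 were higher and 3285 lower in place of 1124 and 796. With at least 10 counts in every library 522 of all genes were lower. *Fmod* kept its log2 fold change between 1.12 and 1.21, *Lum* between 1.42 and 1.51, *Aspn* between 0.59 and 0.69, *Bgn* between -0.49 and -0.39, *Dcn* between -0.30 and -0.21 and *Prelp* between -0.28 and -0.19, all with an adjusted p-value below 0.05, and of these *Fmod* and *Lum* were also past the fold limit of 1. *Ogn* had an adjusted p-value below 0.05 with upper quartile scaling (-0.16, adjusted p = 0.0402 by edgeR's test) and without WT replicate 3. With the replicate block, 1087 of all genes were higher and 772 lower, and *Ogn* had -0.09. Upper quartile scaling moved the median of all genes by -0.07. The 5 ratios kept their direction with each library left out. *Kera* and *Epyc*, at up to 6 counts, are limited by depth.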
